A study of Mus musculus with 179 samples.

Results

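A small number of cells in a culture of mouse pancreatic acinar organoids held far more digestive enzyme transcripts than the rest. The 4 cells described here, titled Acinar52, Acinar155, Acinar162 and Acinar165, make up 2.23% of the cells sequenced. They were chosen by their measured values: at least 5000 genes had a UMI, genes of acinar enzymes and granule proteins together reached at least 1000 CPM (UMIs per 1000000 UMIs of the cell), and the gastric surface genes Gkn1, Gkn2 and Muc5ac together stayed under 1000 CPM. The enzyme and gastric gene levels that chose them are therefore given below as description only. They were set against 82.1% of the cells as reference, which are the other cells with at least 40000 UMIs apart from 6 cells rich in fibroblast genes and 4 cells rich in enzyme or gastric surface genes.

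Acinar cells of the pancreas make digestive enzymes as inactive precursors, thread them through the endoplasmic reticulum (ER) membrane, fold them there, pack them into zymogen granules and release the granules into the duct lumen. The transcription factors Ptf1a, Rbpjl, Bhlha15 (Mist1) and Nr5a2 keep this program on. In culture and after injury acinar cells are known to lose enzyme transcripts and to take on genes of duct cells, a change called acinar-to-ductal metaplasia.

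All cells, the 4 and the reference alike, belong to a single labelled group. They were wild-type acinar cells of exocrine pancreas from mice of the C57BL6 strain, dissociated from the tissue, enriched on a density gradient and then cultured in Matrigel, a gel of basement membrane proteins, where they formed organoids until harvest on day 9. RNA of each cell was read by Smart-seq3, in which a unique molecular identifier (UMI) tags each transcript molecule, within a method that also covers methylation and chromatin accessibility, neither analysed here. No animal or culture is named in the labels, so the cells cannot stand for replicates, and neither tests nor standard errors nor p-values are given. Levels in CPM are not divided by gene length. Intervals in parentheses after a pooled level or a ratio are exact 95% Poisson intervals, which cover counting error only and not the spread between cells. Where no UMI of a gene was found, 3 UMIs are taken as the limit, which is 6.74 CPM over the 3 cells pooled below and 16.7 CPM in Acinar52.

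The name enzyme-retaining held for 1 of the 4 cells by the markers Ctrb1, Prss2 and Cpa1, which encode chymotrypsinogen, a trypsinogen and a carboxypeptidase. Acinar52 held 85203 CPM of Ctrb1, 54743 CPM of Prss2 and 26852 CPM of Cpa1. Acinar155, Acinar162 and Acinar165 held Ctrb1 at 9670.3, 1697 and 1266 CPM, but only 18, 5 and 4 UMIs of Prss2 and 6, 0 and 0 UMIs of Cpa1. For these last 2 genes Acinar155 still exceeded the reference maxima of 66.5 and 34.5 CPM, and the other 2 cells did not. Those 3 cells are called the 3 Ctrb1-high cells below, their values are always given in the order Acinar155, Acinar162 and Acinar165, and Acinar52 is described apart.

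The acinar genes of the rule were taken here as 28 enzyme genes and 11 granule and lectin genes. Together they held 343120 CPM in Acinar52, 10339 in Acinar155, 2162 in Acinar162 and 2672 in Acinar165, against a reference median of 143.6 and a reference maximum of 1068 CPM. The highest reference cell, Acinar81, lies just past 1000 CPM by these genes, although the rule's titles place it in the reference. The next cells below the limit were Acinar29 at 592 and Acinar173 at 508 CPM. Acinar55, Acinar98, Acinar22 and Acinar175 reached 24244, 12199.5, 6037 and 1583 CPM but held 8979 to 64806 CPM of the gastric surface genes, and 6 further cells with fewer than 5000 genes and 6936 to 23618 UMIs held 2943 to 5063 CPM. Among the chosen cells the gastric surface genes of the rule stood at 617 CPM in Acinar52 and 669 in Acinar155, above the reference maximum of 308, and at 32.02 in Acinar162 and 104.8 in Acinar165.

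The 4 cells differed from the reference in more than these genes. UMIs per cell were 179841 in Acinar52 and 143532, 187368 and 114522 in the 3 cells, within the reference range of 41560 to 329522 (median 171929). Genes with a UMI numbered 9803 in Acinar52 and 9535, 13404 and 10121 in the 3 cells, against a reference median of 11874. Reads per UMI reached 5.17 in Acinar52, above every reference cell (1.53 to 4.27), and were 1.81, 2.95 and 3.00 in the 3 cells. Mitochondrial genes held 4.36% of UMIs in Acinar162, above every reference cell (0.532 to 4.14%), and 0.216% in Acinar52, below every one. Ribosomal protein genes held 7.37, 2.62 and 5.41% of UMIs in the 3 cells, where 7, 3 and 5 reference cells lay lower, and 10.2% in Acinar52, at the reference median of 10.2%. Acinar155, Acinar162 and Acinar165 fall in the same run of 24 title numbers, whose meaning the labels do not give. No pair of cells held identical counts, and cells were deposited 1 per sample. Whether RNA of 1 cell was counted in another was not tested.

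The promoters of the acinar genes that set the 4 cells apart are shown because Ctrb1 and Pnliprp2 were high in all 4 cells while Prss2 and Cpa1 were abundant in Acinar52 alone. Each sequence is the 250 bases before the gene's start in RefSeq, build GRCm38.p6, read in the direction of transcription. Capitals mark the letters CANNTG, the E-box that basic helix-loop-helix factors such as Ptf1a and Bhlha15 bind, and TGGGAA or its reverse complement, the letters that Rbpjl recognises beside Ptf1a. Ctrb1 is shown from chr8:111691011-111691260 (minus strand), Pnliprp2, which encodes a pancreatic lipase-related protein, from chr19:58759473-58759722 (plus strand), Prss2 from chr6:41521526-41521775 (plus strand) and Cpa1 from chr6:30638968-30639217 (plus strand).
Ctrb1: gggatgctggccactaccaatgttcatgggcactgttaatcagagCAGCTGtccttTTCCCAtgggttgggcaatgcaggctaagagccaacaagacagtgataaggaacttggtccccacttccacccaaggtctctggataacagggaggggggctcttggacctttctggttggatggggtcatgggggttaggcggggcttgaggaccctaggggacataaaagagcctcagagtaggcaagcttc
Pnliprp2: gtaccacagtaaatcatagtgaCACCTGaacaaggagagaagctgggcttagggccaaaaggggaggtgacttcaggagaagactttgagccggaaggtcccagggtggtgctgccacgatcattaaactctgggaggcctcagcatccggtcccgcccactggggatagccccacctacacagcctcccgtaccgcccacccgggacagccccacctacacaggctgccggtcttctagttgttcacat
Prss2: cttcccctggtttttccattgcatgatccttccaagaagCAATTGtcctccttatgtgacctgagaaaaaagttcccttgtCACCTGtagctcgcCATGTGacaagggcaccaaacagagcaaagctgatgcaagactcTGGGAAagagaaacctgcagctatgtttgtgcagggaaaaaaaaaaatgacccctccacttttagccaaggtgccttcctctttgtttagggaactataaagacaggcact
Cpa1: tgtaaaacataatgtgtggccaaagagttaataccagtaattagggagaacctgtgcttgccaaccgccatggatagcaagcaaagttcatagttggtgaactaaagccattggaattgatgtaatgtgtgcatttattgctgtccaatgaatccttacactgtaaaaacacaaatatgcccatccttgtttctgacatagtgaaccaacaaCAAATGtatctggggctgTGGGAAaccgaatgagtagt
Ctrb1 and Cpa1 each hold 1 CANNTG and 1 TGGGAA match, Prss2 holds 3 and 1, and Pnliprp2 holds 1 and none. Both strands were searched, and overlapping matches were counted. Among 34 promoters found for 33 of the 40 acinar genes listed, 82.4% held CANNTG and 58.8% held TGGGAA, against 66.2% and 21.6% of all 32851 promoters of the same length, and 47.1% against 14.8% held both. These are matches of letters and not sites of binding.

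A UMI was found in Acinar52 for 35 of the 39 acinar enzyme and granule genes, at very unequal levels. The 4 without one were Gp2, Reg2, Reg3a and Reg3d. Others were close to absent: the trypsinogen Prss3 had 1 UMI, the chymotrypsinogen Ctrc and the phospholipase Pla2g1b 3 each, the carboxypeptidase Cpb1 4, the granule membrane protein Cuzd1 11 and the pancreatic lipase Pnlip 17, of 61707 acinar UMIs. Beside the chymotrypsinogen, trypsinogen and carboxypeptidase named above, the lipase cofactor Clps stood at 30388 CPM, the lipase-related Pnliprp1 at 25211 CPM and the granule lectin Zg16 at 484 CPM. The reference maxima of these genes were 118.1, 48.9 and 21.8 CPM, so Acinar52 did not overlap the reference for any of them. Sycn, which encodes the granule protein syncollin, stood at 6667 CPM, Reg1, a secreted regenerating protein, at 6628 CPM and the trypsin inhibitor Spink1 at 1935 CPM. The trypsinogen Try5 (22581 CPM) and the amylase Amy2a5 (17849 CPM) belong to families of near-identical copies among which reads could be split, so their separate levels are uncertain. Amy2a2, Amy2a3 and Amy2a4, further amylase copies, stood at 11822, 17115 and 6578 CPM.

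In Acinar155 and Acinar162 the acinar transcripts were mostly Ctrb1, and in Acinar165 they were mostly Ctrb1 and Pnliprp2 together. Ctrb1 made up 93.5% of the acinar UMIs of Acinar155 (92.2 to 94.7%, exact binomial interval), 78.5% of those of Acinar162 (74.2 to 82.4%) and 47.4% of those of Acinar165 (41.7 to 53.1%). It made up 24.8% in Acinar52 and 52.7% in the pooled reference (51.2 to 54.2%), so Acinar155 and Acinar162 lay further from Acinar52 in make-up than the reference did. The second gene was Pnliprp2, with 30, 50 and 93 UMIs, or 209, 267 and 812 CPM, against a reference maximum of 170.3 CPM. It made up 30.4% of the acinar UMIs of Acinar165. The reference cell Acinar81 had a similar make-up, with Ctrb1 at 65.9% (57.4 to 73.8%) and Pnliprp2 at 15.9% of its acinar UMIs. Prss2 made up 1.21, 1.23 and 1.31% of the acinar UMIs of the 3 cells, against 15.95% in Acinar52 and 7.83% in the reference. Without Ctrb1 the remaining acinar genes still summed to 669, 464 and 1406 CPM, above the reference maximum of 364, and a UMI was found for 15, 10 and 11 of the 39 genes.

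**Figure D1:**
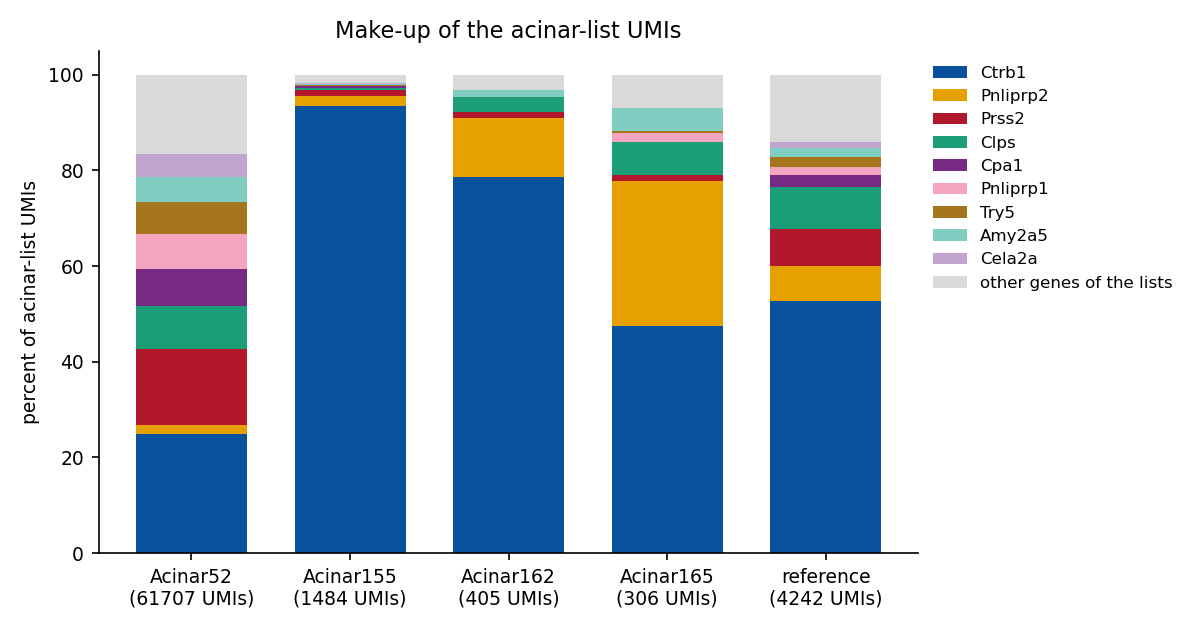
Share of each acinar gene in the acinar UMIs of Acinar52, the 3 Ctrb1-high cells and the pooled reference, in percent (the number of acinar UMIs stands under each bar). Ctrb1 takes 24.8% in Acinar52 and 93.5, 78.5 and 47.4% in the 3 cells, where Prss2 and Cpa1 are thin slivers.

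Ctrb1 (GRCm38, chromosome 8 at 111686519 to 111691010) was present at a low level almost everywhere, with a UMI in all but 1 of the reference cells. The reference median was 82.3 CPM and the maximum 704 CPM, so that each of the 3 cells lay above all reference cells. Clps stood at 41.8, 69.4 and 183.4 CPM in the 3 cells and overlapped the reference range of 0 to 118.1 CPM in Acinar155 and Acinar162. Amy2a5 stood at 27.9, 32.02 and 130.98 CPM, above the reference maximum of 26.9 CPM. These levels rest on 4, 6 and 15 UMIs, and Amy2a5 is one of the near-identical copies named above. Its margin in Acinar155 is therefore within counting error. Pnliprp1 was found only in Acinar165 among the 3 (6 UMIs), and the reference maximum of 48.9 CPM was close to its level of 52.4 CPM.

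**Figure D2:**
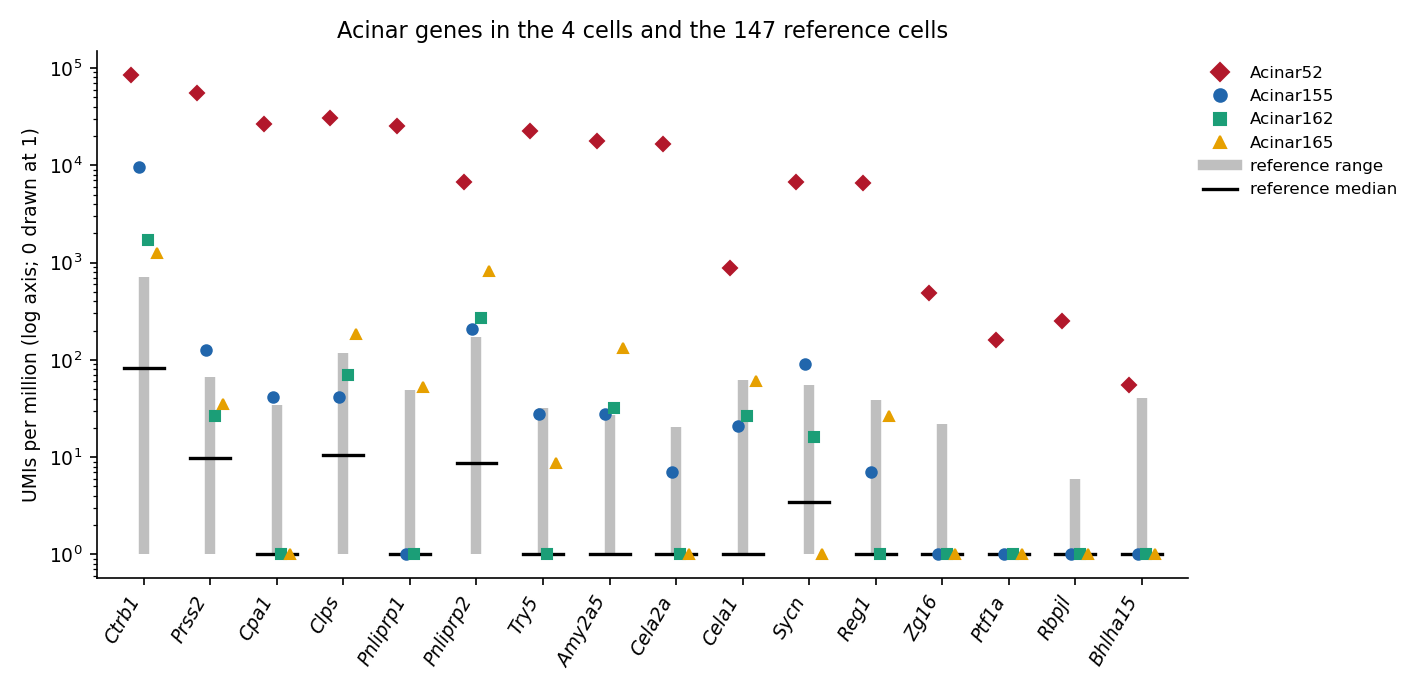
Level of 16 acinar genes in Acinar52, the 3 Ctrb1-high cells and the reference cells (CPM, log axis, 0 drawn at 1; grey bars give the reference range and black lines its median). Acinar52 lies above the reference range for each of the 16 genes, while the 3 cells do so together for Ctrb1, Pnliprp2 and Amy2a5. Amy2a5 had only 4, 6 and 15 UMIs in the 3 cells.

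The transcription factors of acinar identity separated Acinar52 from the 3 cells. Ptf1a had 29 UMIs in Acinar52 (161.3 CPM) and none in the 3 cells or in any reference cell. Rbpjl, its partner, had 45 UMIs in Acinar52 and none in the 3 cells, and was found in 2 reference cells. Bhlha15 had 10 UMIs in Acinar52, none in the 3 cells, and a UMI in 21 reference cells at up to 40.5 CPM. These 3 genes lay under the level of 20 CPM asked of a gene for the comparisons below. Cckar, the receptor for cholecystokinin, which triggers enzyme release, had 33 UMIs in Acinar52 and none in the 3 cells or the reference.

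Other factors of the list had no common direction in the 3 cells. Of 5 acinar factors tested by the rule given below, 1 was counted as higher, Mecom, 2 as lower, Nr5a2 and Creb3l2, and 2 as neither, Xbp1 and Gata6 (all genes 3.06% higher and 12.5% lower). Nr5a2 had 0, 2 and 0 UMIs, against a reference median of 21.7 CPM. Creb3l2, a membrane-bound factor of the secretory pathway, had none, against a median of 74.3 CPM. Xbp1, the factor of the secretory unfolded protein response, stood at 76.6, 10.7 and 17.5 CPM in the 3 cells and at 534 CPM in Acinar52, above the whole reference range of 7.11 to 456 CPM. Mecom, a zinc finger factor, stood at 181.1, 315 and 139.7 CPM in the 3 cells and 144.6 CPM in Acinar52, against a reference median of 12.2 and range of 0 to 322 CPM. Gata4, a foregut factor, was found in all 4 cells, at 72.3 CPM in Acinar52 and 20.9, 58.7 and 253 CPM in the 3, with a UMI in 65 reference cells and a range of 0 to 117.1 CPM. Mecom and Gata4 overlapped the top of the reference, and Acinar165 alone exceeded it, for Gata4.

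Across all genes the 3 Ctrb1-high cells had more genes counted as lower than as higher. A gene was counted as higher when its pooled level with 5 CPM added was at least 2 times that of the reference and each of the 3 cells lay above the reference's upper quartile, and as lower for the mirror image. Of 8059 genes with a mean of at least 20 CPM over the cells compared, 247 were higher (3.06%) and 1010 lower (12.5%), and the median log2 fold was -0.28. The number of genes counted rose when 1 cell was left out, to 294 to 550 higher and 1327 to 1703 lower (504 and 1327 without Acinar155, 550 and 1703 without Acinar162, 294 and 1651 without Acinar165), because fewer cells then had to pass. Against the 19 reference cells in the same run of title numbers, 296 genes were higher and 911 lower. Of the 8059 genes, 7997 passed the level filter through the reference cells alone. The higher genes include 5 acinar enzyme genes, which belong to the rule. List counts for the 3 cells are set beside the shares 3.06% and 12.5%.

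**Figure D3:**
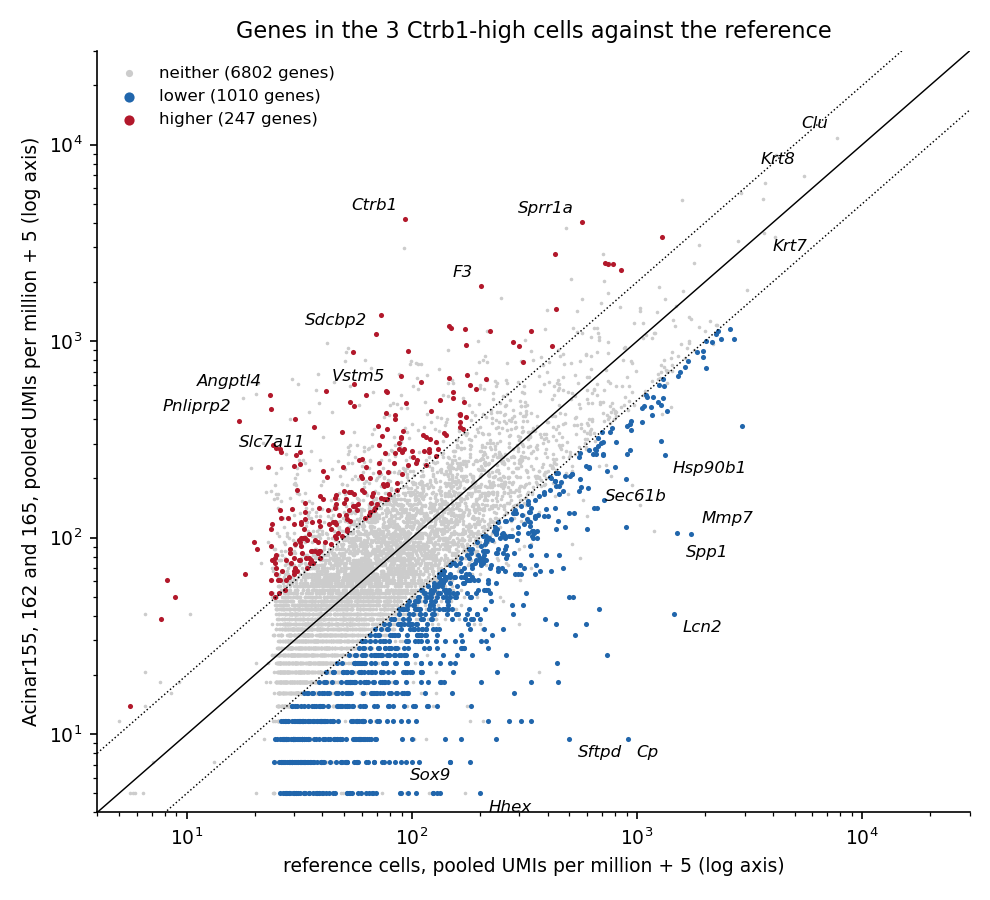
Pooled level of each of 8059 genes in the 3 Ctrb1-high cells against the pooled reference (CPM with 5 added, log axes; the dotted lines mark 2-fold). Red points are the 247 genes counted as higher and blue points the 1010 counted as lower, with Ctrb1 far above and Hhex, Sftpd and Cp far below the line.

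The machinery that brings enzymes into the ER was low in the 3 cells and not raised. The 26 genes of the translocon, signal recognition, oligosaccharyl transfer and signal peptidase together held 2132, 1388 and 2454 CPM, against a reference median of 4524 and range of 1579 to 7146 CPM. The level was lower in 4, 0 and 5 reference cells. Of the 26 members tested, 12 were counted as lower and 0 as higher (all genes 12.5% and 3.06%), with a median log2 fold of -1.17 against -0.28 over all genes. The lower members were Ddost, Ostc, Rpn1, Sec61a1, Sec61b, Sec61g, Sec63, Spcs2, Srp72, Srprb, Ssr2 and Ssr3.

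Sec61b, a subunit of the translocation channel, stood at 188.1, 26.7 and 253 CPM against a reference median of 659.6 CPM. Ostc, a subunit of the oligosaccharyl transferase, stood at 13.9, 21.3 and 8.73 CPM against a median of 148.1 CPM, 9.34 times (4.53 to 23.2) lower. Rpn1, another subunit of that enzyme, stood at 41.8, 74.7 and 43.7 CPM, under a median of 207 CPM. Its partner Rpn2 was not counted, at 125.4, 267 and 262 CPM against a median of 290.0 CPM. At most 6 reference cells lay at or below any of the 3 cells for Sec61b, Ostc and Rpn1, while Rpn2 of Acinar162 and Acinar165 lay in the middle of the reference range.

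Chaperones and folding enzymes of the ER were low in the same cells. The ER folding genes together held 2703, 2332 and 3318 CPM, against a reference median of 5771 and range of 2300.2 to 10115 CPM. Of 28 members tested, 11 were counted as lower and 0 as higher (all genes 12.5% and 3.06%), with a median log2 fold of -0.88. Hsp90b1, the ER form of the chaperone Hsp90, stood at 314, 272 and 165.9 CPM against a median of 1314 CPM, 5.11 times (4.26 to 6.20) lower when pooled. Manf, a secreted ER stress protein, was 7.37 times (4.002 to 15.4) lower, with 3, 3 and 4 UMIs. The protein disulfide isomerases Pdia3, Pdia4, Pdia6 and Txndc5 were among the lower genes. The abundant chaperone Hspa5 (BiP), at 425, 235 and 733 CPM against a median of 792 CPM, and calreticulin (Calr), at 279, 154.8 and 402 against 481 CPM, were not counted.

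Vesicle transport from ER to Golgi moved less. Its list held 2466, 2289.6 and 3336 CPM against a reference median of 3299 CPM. Of 27 members tested 1 was lower (all genes 12.5%), the cargo receptor Lman1, at 41.8, 32.02 and 69.9 CPM against a median of 140.9 CPM. The ribosomal protein share was low in the same 3 cells, as given above, and across the reference cells it was related to the translocon sum with a Pearson r of 0.58 and a Spearman rho of 0.37, and to the ER folding sum with 0.43 and 0.34. Each pair of shares has the same UMI total. In the 10 reference cells with the lowest ribosomal share, 1.70 to 7.80% of UMIs, the translocon sum had a median of 2889.99 CPM and a range of 1579 to 5464 CPM, and the ER folding sum a median of 4016 CPM and a range of 2300.2 to 5545 CPM. Both medians lay below those of the whole reference, and the 3 cells lay below both. Acinar162, the lowest cell for both lists, was also the cell with the highest mitochondrial share. Across the reference cells the mitochondrial share ran against the translocon sum (Spearman rho -0.38) and against the ER folding sum (-0.45). The parts of the ribosomal and mitochondrial shares in the ER result were not tested.

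Genes of granule exocytosis did not share the direction of the ER genes. The list held 2383, 1238 and 2838 CPM, with a reference median of 1386 and range of 859.8 to 2879 CPM, so that Acinar155 and Acinar165 lay near the top of the reference and Acinar162 below its median. This sum ran against the ribosomal share across the reference cells (Pearson r -0.37, Spearman rho -0.35) and with the mitochondrial share (Spearman rho 0.46). The 10 reference cells with the lowest ribosomal share had a median of 1791 CPM, and the part of either share in the result was not tested. Of 15 members tested, 2 were higher and 1 was lower (all genes 3.06% and 12.5%). Stxbp2, which encodes the Munc18 protein that acts in granule fusion, stood at 229.9, 368 and 323 CPM against a median of 103.1 CPM, 2.71 times (2.27 to 3.22) the reference when pooled. Sytl2, an effector of Rab27 on secretory granules, stood at 244, 42.7 and 524 CPM against a median of 3.75 CPM. Nucb2, a calcium-binding secreted protein, was the lower gene, at 34.8, 21.3 and 78.6 CPM against 237 CPM. Vamp8, the main SNARE of zymogen granules, stood at 669, 133.4 and 733 CPM with a reference range of 48.9 to 566 CPM, above the range in 2 of the 3 cells and low in Acinar162. Rab3d, a granule GTPase, stood at 104.5, 5.34 and 183.4 CPM with a reference range of 0 to 176.2 CPM, above it in Acinar165 and near its low end in Acinar162.

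**Figure D4:**
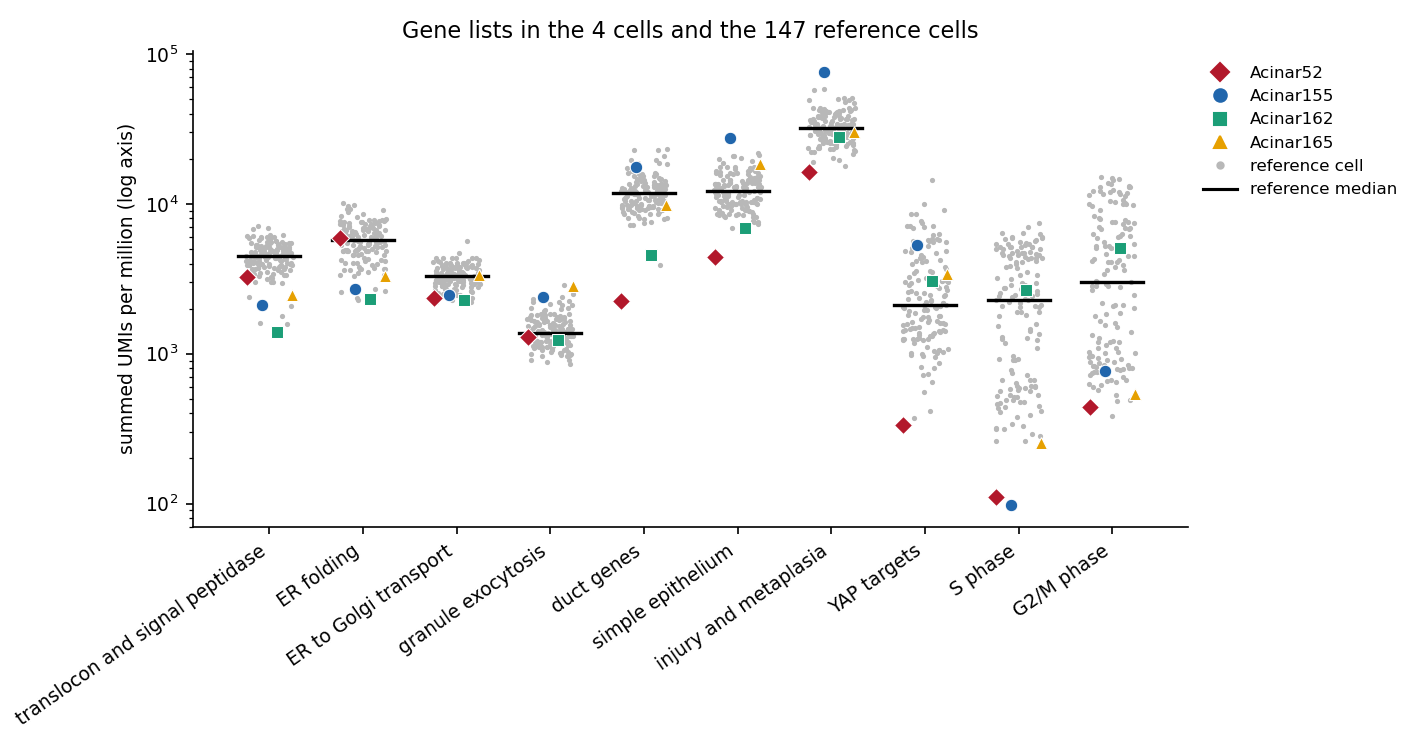
Summed level of 10 gene lists in Acinar52, the 3 Ctrb1-high cells and each reference cell (CPM, log axis; black lines give the reference medians). The 3 cells lie low for translocon and ER folding genes, spread widely for duct, epithelial and injury genes, and Acinar162 stands apart from the other 2 for S phase and G2/M genes.

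Among the duct genes 2 keratins stayed within the reference range, some regulators and secreted products were low, and most members were not counted in either direction. Krt7, a duct keratin, stood at 6577, 1841 and 2541 CPM, with a reference median of 3411 and range of 563 to 12101 CPM, and Krt19 at 4431, 849 and 2716 CPM, with 1479 and 319 to 5376. Of the 17 duct genes tested, 6 were counted as lower, 0 as higher and 11 as neither. Among all genes 12.5% were lower and 3.06% were higher. The median log2 fold of the duct genes was -1.37. The lower genes included Sox9, Spp1, Ambp, Prom1 and Bicc1. Sox9, the main duct and progenitor transcription factor, had 0, 0 and 1 UMIs in the 3 cells and a reference median of 55.6 CPM.

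Spp1, the secreted phosphoprotein osteopontin of duct cells, stood at 34.8, 144.1 and 113.5 CPM against a reference median of 1261 CPM, 14.9 times (11.1 to 20.4) lower when pooled. Ambp, a secreted plasma-type protein, stood at 202, 64.05 and 61.1 CPM against 864 CPM, and Bicc1, an RNA-binding protein of ducts, at 13.9, 64.05 and 0 against 406 CPM. All 3 cells lay below the 25th percentile of the reference cells for each, as the rule asks. Hhex, a duct and foregut transcription factor outside the list, had no UMI in any of the 4 cells and a UMI in every reference cell (median 169.4 CPM). That is a pooled level at least 29.004-fold lower, taking 3 UMIs over the 3 cells as the limit. The summed duct level depended on the cell: it was 17557, 4553 and 9806 CPM, and its log2 ratio to the reference moved from -0.24 to -0.86 without Acinar155 and to 0.25 without Acinar162.

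Simple epithelial genes showed the same spread. Krt8 stood at 12289.9, 2572 and 7369.8 CPM, with a reference median of 5300.2 CPM, and the list summed to 27408, 6874 and 18520.5 CPM, above every reference cell in Acinar155 and above only 1 in Acinar162. Of 18 members tested, 2 were lower, the adhesion molecule Epcam and the tight junction protein Cldn3, and 1 was higher, the tight junction protein Ocln. Among all genes 12.5% were lower and 3.06% higher, shares near these counts. Epcam stood at 286, 176.1 and 157.2 CPM against a median of 495 CPM, under every reference cell in Acinar162 and Acinar165. Ocln stood at 146.3, 90.7 and 209.6 CPM against 36.3 CPM. Ezr, which links membrane to actin in microvilli, stood at 4048, 779 and 3353 CPM with a reference range of 292 to 1974 CPM, above the range in 2 of the 3 cells and above 93 reference cells in Acinar162. The list's log2 ratio was 0.42, and -0.13 without Acinar155.

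Injury and metaplasia genes moved in both directions. Of 33 members tested, 3 were higher, Sprr1a, Krt20 and Itga2, and 8 were lower, among them Mmp7, Lcn2, Cp, Cxcl5, Cd44, Onecut2 and Nupr1. Among all genes 3.06% were higher and 12.5% lower. The median log2 fold of the injury genes was 0.46, against -0.28 over all genes. Sprr1a, a small proline-rich protein of stressed epithelia (chromosome 3 at 92483952 to 92485895), stood at 9747, 1377 and 1153 CPM against a reference median of 146.1 and maximum of 4868 CPM. Krt20, a keratin of gastric and intestinal surface cells, stood at 961, 203 and 122.2 CPM against 17.2 CPM, and the collagen-binding integrin Itga2 at 1609, 640.5 and 585 against 258 CPM. Acinar155 was the highest of the 3 cells for each of these genes and exceeded the reference range for Sprr1a and Itga2, while Acinar162 and Acinar165 lay inside it.

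The lower injury genes were low in each of the 3 cells, as the rule asks of a gene counted as lower. Cp, which encodes the iron-oxidising plasma protein ceruloplasmin, had 1, 1 and 0 UMIs, against a reference median of 347 and maximum of 7879 CPM, 201 times (55.8 to 1664) lower when pooled. Lcn2, an iron-binding defence protein, stood at 41.8, 32.02 and 34.9 CPM against a median of 1028 CPM, 40.6 times (24.98 to 70.99) lower. Mmp7, a matrix protease of metaplastic acinar cells, stood at 6.97, 176.1 and 87.3 CPM against 1701 CPM. Cxcl5, a neutrophil chemokine, stood at 13.9, 21.3 and 26.2 CPM against 677 CPM. The receptor Cd44 was 7.10 times (4.94 to 10.6) and the stress protein Nupr1 5.09 times (3.64 to 7.36) lower when pooled. All these values overlapped the low end of the reference range.

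Clu, a secreted chaperone of injured epithelium, stood at 15362, 9089 and 7998 CPM with a reference range of 2397 to 27648 CPM and was not counted. The list summed to 75572, 27822 and 30326 CPM against a reference median of 32212 CPM, and the highest cell, Acinar155, exceeded every reference cell. Its log2 ratio was 0.44, and -0.17 without Acinar155.

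Targets of the mechanical signal protein YAP were counted as higher for 2 of 12 members tested (all genes 3.06%). F3, the coagulation starter tissue factor, stood at 3435, 1681 and 314 CPM against a reference median of 88.9 and maximum of 1019 CPM, so that Acinar155 and Acinar162 exceeded every reference cell and Acinar165 did not. Ajuba, a LIM protein of the Hippo pathway, stood at 118.4, 96.1 and 183.4 CPM against 47.5 CPM. The classical targets Ccn1, at 265, 21.3 and 279 CPM against 139.6, Ccn2, at 125.4, 42.7 and 34.9 against 104.8, and Ankrd1, at 13.9, 64.05 and 428 against 276, were not counted. The list thus had no common direction. Against the 19 reference cells in the same run of title numbers, its summed log2 ratio was 1.12 in place of 0.38.

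Gastric surface genes outside the rule were high in part of the cells. Anxa10, an annexin of gastric epithelium, stood at 2313, 336 and 1188 CPM against a reference median of 74.7 CPM, and Psca, a surface antigen of gastric and prostate epithelium, at 1066, 74.7 and 882 against 40.9 CPM. Both were counted as higher (all genes 3.06%), among 7 members tested, of which 6 passed the level filter through the reference alone. Tff1, a trefoil peptide of gastric mucus, stood at 5720.0, 320.2 and 349 CPM with a reference range of 65.6 to 5839.8 CPM and was not counted. The list's log2 ratio to the reference moved from 1.95 to 0.59 without Acinar155, the highest cell for all 3 genes, and to 2.62 without Acinar162, the lowest. Muc5ac, Gkn1 and Gkn2 belong to the rule and support nothing here. They are also summed in the list, so its ratios are partly drawn from the choice of cells and are description only.

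The cell cycle divided the 3 cells. The 37 S phase genes together held 97.5, 2679 and 253 CPM against a reference median of 2276 and range of 260.2 to 7421 CPM, and the 40 G2/M genes held 766, 5054 and 541 CPM against 3026 and 387 to 15066 CPM. Acinar155 and Acinar165 lay below every reference cell for the S phase sum, and Acinar162 lay above 83 reference cells. Mki67, the proliferation marker, had 0, 30 and 0 UMIs, and Top2a, the mitotic topoisomerase, had 0, 88 and 1. Pcna, the replication clamp, stood at 13.9, 117.4 and 26.2 CPM against a median of 139.04 CPM. Acinar162 thus lay inside the reference range for these genes and the other 2 cells near or below its low end.

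Without Acinar162 the log2 ratio of the S phase list moved from -1.18 to -4.06 and that of the G2/M list from -1.02 to -2.93. Of 35 S phase and 37 G2/M genes tested, 1 was counted as lower, the replication factor Gins2, with 0, 1 and 0 UMIs, and none as higher, since a gene had to be low in each cell. Among all genes 12.5% were lower and 3.06% higher by the same rule. The cycle inhibitor Cdkn1a (p21) ran the other way by cell, at 2627, 283 and 1808 CPM, above the reference maximum of 1586 CPM in Acinar155 and Acinar165 and near the reference median of 269 CPM in Acinar162. The cyclin Ccnd1 stood at 592, 272 and 725 CPM against 798 CPM, and no gene of the G1 list was counted in either direction among 14 tested.

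Progenitor factors differed between the cells. The list summed to 251, 480.3 and 1153 CPM, below every reference cell in Acinar155 and above all but 5 in Acinar165. Of 9 foregut and progenitor genes tested, 3 were lower, Pdx1, Hes1 and Meis1, and 0 were higher (all genes 12.5% and 3.06%). Hes1, the Notch target, stood at 27.9, 21.3 and 26.2 CPM against a reference median of 120.1 CPM, 6.55 times (3.66 to 13.1) lower when pooled. Pdx1, the pancreas-defining homeobox factor, had 0, 2 and 0 UMIs, against a median of 19.8 CPM. Meis1, another homeobox factor, had 1, 1 and 1 UMIs and was 7.69 times (2.63 to 37.4) lower. Hnf4a, a factor of gut and liver epithelium, stood at 104.5, 224 and 375 CPM against 141.1 CPM and was not counted.

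Amino acid response genes again pointed both ways, with 2 higher and 3 lower of 11 tested (all genes 3.06% and 12.5%). Slc7a11, the cystine importer, stood at 327, 278 and 541 CPM, above the reference maximum of 259.8 CPM in each cell and 11.4 times (9.60 to 13.6) the reference when pooled. Wars, the tryptophan tRNA synthetase, stood at 348, 181.5 and 445 CPM against a median of 112.5 CPM. Its relatives Nars, at 202, 149.4 and 227 CPM against 453, and Aars, at 41.8, 64.05 and 34.9 against 117.2, were lower, as was Shmt2, a mitochondrial serine enzyme with 1, 1 and 0 UMIs and a pooled level 13.3 times (3.67 to 109.8) lower. Among 17 immediate early genes tested, Dusp5, a phosphatase of the ERK kinase, was higher (181.1, 149.4 and 130.98 CPM against 25.7) and Fos was lower (6.97, 32.02 and 96.1 CPM against 266). These 2 were the only ones counted, beside the same shares of all genes.

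Outside the lists, the genes with the highest pooled folds over the reference came from several processes. Angptl4, a secreted regulator of lipoprotein lipase (chromosome 17 at 33773750 to 33781830), stood at 529, 817 and 43.7 CPM, and a UMI was found in 68 reference cells, at up to 410.0 CPM. Sdcbp2, which encodes syntenin-2, stood at 2773, 197 and 402 CPM against a reference median of 51.7 CPM, led by Acinar155. Vstm5, a membrane protein of the immunoglobulin superfamily, stood at 543, 646 and 419 CPM, above the reference maximum of 271 CPM in each of the 3 cells. The groups thus did not overlap for Vstm5, while Acinar165 overlapped the reference for Angptl4, and Acinar162 and Acinar165 did so for Sdcbp2.

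Mxd1, an antagonist of Myc, stood at 578, 133.4 and 603 CPM against a reference median of 11.8 CPM. Ptgs2, the inducible prostaglandin synthase cyclooxygenase-2, stood at 334, 309.6 and 165.9 CPM against 5.06 CPM, and Ghr, the growth hormone receptor, at 41.8, 566 and 104.8 against 7.47 CPM. A26c2, at 34.8, 1793 and 410.4 CPM, and Cdhr2, a microvillus cadherin, at 160.2, 902 and 52.4 CPM, owed most of their pooled level to Acinar162. The rest of the 12 were Cwh43, Arhgap40, Fam214b and Abhd2, of which Abhd2 was led by Acinar165 (578, 326 and 2183 CPM). Angptl4, Cdhr2, Cwh43 and Fam214b passed the level filter only because of the 4 cells, so their high level there was partly asked for.

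The genes with the lowest pooled folds had 0 to 6 UMIs in each of the 3 cells. Sftpd, the lectin surfactant protein D, had 0, 0 and 2 UMIs in the 3 cells and none in Acinar52, against a reference median of 478 CPM. Ehf, an epithelial Ets factor, had 0, 3 and 0 UMIs against a median of 338 CPM and a lowest reference level of 34.1 CPM, so the groups did not overlap. Scara3, a scavenger receptor family member, did not overlap either, at 6.97, 10.7 and 0 CPM against a range of 17.3 to 1066 CPM. Col4a1, a basement membrane collagen, the interleukin-1 receptor Il1r1, the planar polarity cadherin Celsr1 and the ephrin receptor Epha4 had no UMI in the 3 cells, at least 18.96, 18.5, 17.7 and 17.7-fold lower. Pclaf, a partner of Pcna, had 0, 1 and 0 UMIs, against a median of 142.4 CPM. Cdh6 (1, 0 and 1 UMIs), Fbln2 (2, 1 and 0) and Igfbp7 (0, 6 and 0), genes of adhesion and matrix, completed the 12 with Hhex.

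**Figure D5:**
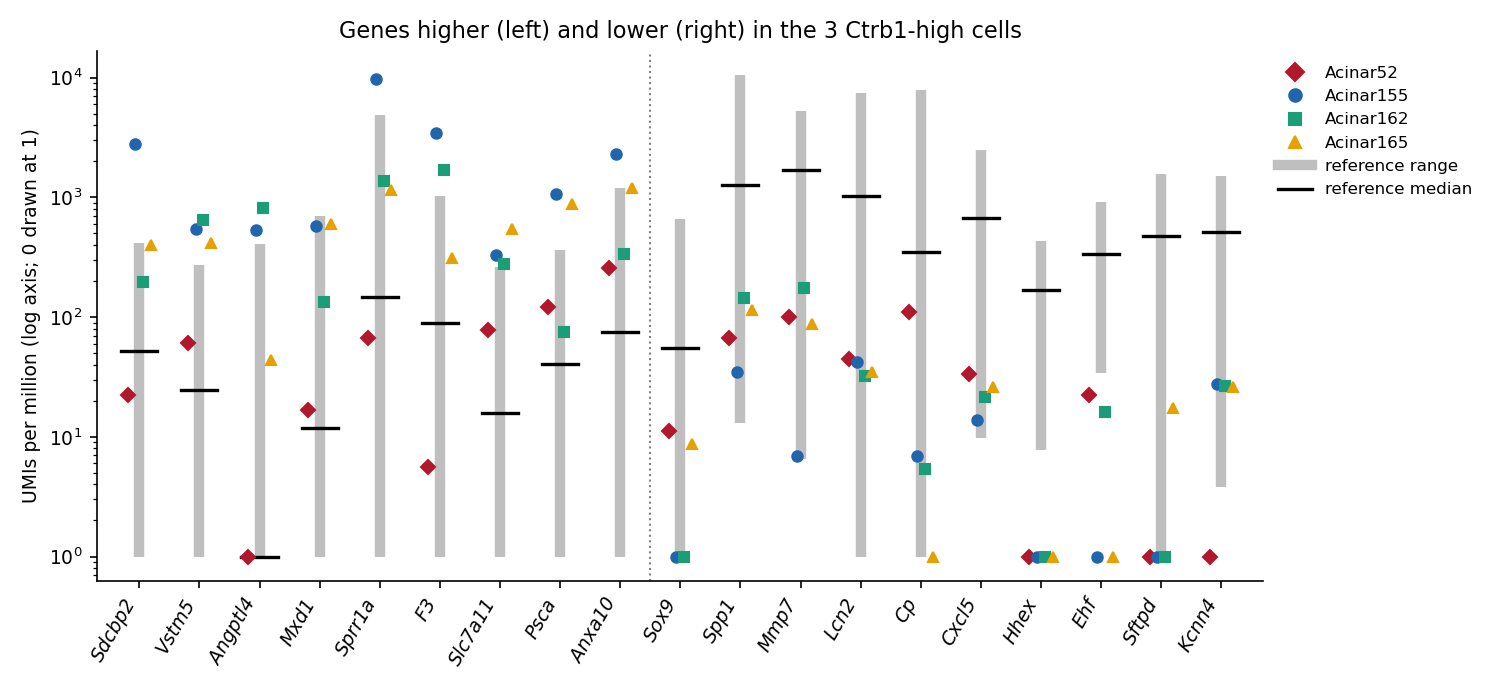
Level of 9 genes counted as higher and 10 counted as lower in the 3 Ctrb1-high cells, with Acinar52 beside them (CPM, log axis, 0 drawn at 1; grey bars give the reference range and black lines its median). Vstm5 and Slc7a11 lie above the reference range in each of the 3 cells, and Hhex and Ehf below it in all 4.

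Fibroblast and immune markers were close to absent, while endothelial and endocrine markers were found in part of the cells. Of 15 fibroblast genes 1 UMI was found in the 3 cells together, and of 10 immune genes 2 UMIs, with the defining genes Col1a2, Pdgfrb, Cd74 and Csf1r at 0 in all 4 cells. Fibroblast genes summed to 0, 5.34 and 0 CPM in the 3 cells and 0 in Acinar52, with a reference range of 0 to 931 CPM, and immune genes to 6.97, 5.34 and 0 and 0 CPM, with 0 to 259. The 9 endothelial genes summed to 6.97, 384 and 8.73 CPM in the 3 cells and 5.56 CPM in Acinar52, with a reference range of 0 to 99.7 CPM. The level of Acinar162 was almost all Pecam1, an adhesion molecule of endothelium (66 UMIs), while 4 of the 9 genes had a UMI there and Eng had none. Without Acinar162 the log2 ratio of the endothelial list moved from 2.78 to -1.64. Endocrine genes summed to 0, 128.1 and 104.8 CPM in the 3 cells and 278 CPM in Acinar52, with a reference median of 37.5 and range of 0 to 722 CPM. Only 5 reference cells lay higher than Acinar52, where 4 of 12 genes had a UMI, most of them from the insulin genes Ins1 (17 UMIs) and Ins2 (22), with the defining genes Chga, Gcg and Isl1 at 0 in all 4 cells. A list of 8 genes of tissues other than pancreas summed to 97.5, 229 and 209.6 CPM in the 3 cells and 33.4 CPM in Acinar52, with a reference median of 115.4 and range of 25.97 to 350.3 CPM. Acinar162 and Acinar165 stood high in that range, with 10 and 14 reference cells above them, mostly through Mbp, which encodes myelin basic protein (26 and 18 UMIs). Whether a second cell or free RNA had a part in any of these levels was not tested.

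Acinar52 as a single cell was set against the reference by a stricter rule, with a level at least 2 times higher or lower and past the 95th or 5th percentile of the reference cells. Of the 8059 genes, 2.26% were higher and 27.03% (2178 genes) lower, with a median log2 fold of -1.22. On either total given below, the higher genes include all 15 acinar enzyme genes and the 2 granule genes tested, which belong to the rule. Of those enzyme genes 1 passed the level filter through the reference alone, and of the granule genes 0. The share of higher genes is thus partly fixed by the choice of cells. Acinar enzyme and granule genes held 34.3% of its UMIs, which lowers the share left for all others. Per UMIs outside the acinar lists, 594 genes were higher (7.37%) and 1431 lower (17.8%), and the median log2 fold was -0.71, a shift of 0.51. List values for Acinar52 are therefore given on both totals, the second called the non-acinar total.

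In Acinar52 the ER genes had no common direction. Translocon genes held 3236 CPM of all UMIs and 4927 of the non-acinar total, on either side of the reference median of 4524 CPM, so that the direction depended on the total, and 11 reference cells lay below the first value. Of 26 members tested, none was counted in either direction on all UMIs, and on the non-acinar total 1, Tram1, was higher. ER folding genes held 5883 CPM on all UMIs and 8956 on the non-acinar total, against a median of 5771 CPM. Of 28 tested, 2 were higher (2.26% of all genes), Sel1l and Edem2, and 1 was lower (27.03% of all genes), Txndc5, and on the non-acinar total 6 were higher. Sel1l, a component of ER-associated degradation, stood at 539 CPM, above the reference maximum of 159.1 CPM.

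Among 15 exocytosis genes tested, 2 were higher and 1, the SNARE Snap23, was lower in Acinar52 (all genes 2.26% and 27.03%), the latter only on all UMIs. The granule GTPases Rab3d and Rab27b stood at 139.01 and 133.5 CPM against reference medians of 39.04 and 45.7 CPM, where 2 and 4 reference cells lay higher than Acinar52. Tmem97, a sterol-regulated membrane protein, stood at 934 CPM, above the reference maximum of 236 CPM, while the 3 Ctrb1-high cells had 1, 0 and 0 UMIs of it, with a reference median of 72.1 CPM. Gamt, an enzyme of creatine synthesis, stood at 428 CPM against a reference maximum of 100.7 CPM, too low in the reference to be tested. Nr5a2 stood at 111.2 CPM, higher than in all but 2 reference cells. The amino acid response genes Wars, at 617 CPM, and Asns, the asparagine synthetase, at 155.7 CPM, were higher, with reference medians of 112.5 and 39.7 CPM.

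Duct and epithelial genes were low in Acinar52 on either total. The duct list held 2263 CPM on all UMIs and 3445 on the non-acinar total, against a reference range of 3885 to 23126 CPM. Of 17 members tested, 10 were lower and 0 higher (all genes 27.03% and 2.26%), and on the non-acinar total 8 were lower (all genes 17.8%). Krt7 stood at 217 CPM, below every reference cell, and Krt19 at 995 CPM, within the reference range. The bicarbonate transporter Slc4a4 and the ciliary protein Pkhd1 had no UMI, at least 10.5 and 6.20-fold lower, taking 3 UMIs in the cell as the limit. The epithelial list held 4437 CPM on all UMIs and 6755 on the non-acinar total, against a reference minimum of 6704 CPM, and 11 of 18 members were lower on the first total and 8 on the second, beside the same shares of all genes. Krt8 stood at 1702 CPM and Epcam at 94.5 CPM, both below every reference cell.

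Of 33 injury genes tested in Acinar52, 15 were lower, 1 was higher and 17 were neither, on all UMIs and on the non-acinar total alike (lower among all genes 27.03% and 17.8%). Among the lower genes were the calcium-binding S100a6 (417 CPM against a reference median of 3374), the membrane-binding Anxa2 (339 against 4094) and Cd44, which had no UMI. Nupr1, a stress-induced chromatin protein of exocrine pancreas, was the higher gene, at 3469.7 CPM, just above the reference maximum of 3446 CPM, where the 3 Ctrb1-high cells held 83.6, 74.7 and 69.9 CPM. Clu stood at 8146 CPM, inside the reference range.

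The summed levels of proliferation genes were low in Acinar52, while few members were counted one by one. S phase genes held 111.2 CPM on all UMIs and 169.3 on the non-acinar total, below every reference cell, and G2/M genes held 439 and 669 CPM, near the reference minimum of 387 CPM. Of 35 S phase genes tested 5 were counted as lower and of 37 G2/M genes 2, and none as higher, where 27.03% of all genes were lower. The median log2 folds ran the other way, at -3.26 for S phase and -3.43 for G2/M genes against -1.22 over all genes. A gene counted as lower also had to lie below the 5th percentile of the reference cells, so these counts do not measure how low the genes were. The genes counted were the replication genes Dut, Mcm6, Mcm7, Rfc2 and Rrm1 and the mitotic genes Kif23 and Smc4. All but Mcm7 were also lower on the non-acinar total (all genes 17.8%). Mki67 and Top2a had 3 UMIs each. The cyclin Ccnd1 stood at 38.9 CPM, below every reference cell, and Cdkn1a at 217 CPM, near the reference median. The YAP target list held 334 CPM on all UMIs and 508 on the non-acinar total, where the reference range was 371 to 14449 CPM.

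Beyond the lists and without unnamed predicted genes, the largest folds of Acinar52 over the reference were those of the amylase copies Amy2a2, Amy2a3 and Amy2a4. Selenop, Kctd14, Gstm1, Atf5, Marcks, Gstp2, Gstm2, Zyx and Mt2 followed. The protein-coding gene 2210010C04Rik, left out by its name, stood at 11566 CPM. Its log2 fold of 11.01 was larger than that of Amy2a3, at 10.92. The UMIs of 2210010C04Rik and of the amylase copies stayed in the non-acinar total. These 4 genes and Kctd14 passed the level filter only because of the 4 cells. Selenop, a secreted selenium carrier, stood at 1018 CPM against a reference maximum of 209 CPM, and Marcks, a membrane substrate of protein kinase C, at 400.4 against 137.97 CPM. The glutathione transferases Gstm1, Gstm2 and Gstp2 have close copies in the genome, and their levels of 1796, 267 and 589 CPM are uncertain for that reason. The lowest folds were those of Kcnn4, Sftpd, Igfbp7, Cadm1, Tstd1, Plat, Cdh6, Prrc2c, Plscr1, Ezh2, Wnt7b and Slc4a11, none of which had a UMI in Acinar52. Kcnn4, a calcium-activated potassium channel, had a reference median of 510.3 CPM and was at least 31.6-fold lower. The 3 Ctrb1-high cells held 27.9, 26.7 and 26.2 CPM of Kcnn4 and 174.2, 454 and 611 CPM of Slc4a11, a membrane transporter with a reference median of 180.2 CPM.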

How the data were processed

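RNA of 179 single cells was read by Smart-seq3; 147 of them form the reference. The deposited tables hold raw counts per cell, 1 of UMIs and 1 of reads, for 32100 gene identifiers; their values are whole numbers that the authors did not scale. STAR, featureCounts, GRCm38 and mm10 are named per the submitters' processing notes, without versions. The handling of UMI collapsing, strand and overlapping genes was not given in the sources used. Symbols and positions came from GENCODE annotation of GRCm38 and promoters from RefSeq; 115 identifiers (0.0884% of UMIs) had no symbol and 22 shared one.

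UMI counts were divided by the cell total and scaled to CPM. Genes with a mean of at least 20 CPM over the reference and the 4 cells, weighted equally, were compared by the fold and percentile rules in the text. Intervals reflect counting error only. Beside 18 cells under 40000 UMIs, 10 cells named in the rule were left out of the reference. No doublet caller was run.

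Named genes are fixed markers, the 4 most abundant members of each list, up to 4 members with the largest fold each way among those counted, and outside the lists the 12 highest and 12 lowest, without unnamed predicted genes. Members and lists were chosen with earlier results of these data known. Alternatives changed the unit, filter, total, reference, depth, rule or cells. Some list members are not reported here. The comparison script was tested on simulated data. Python 3.11.15, numpy 2.4.6, pandas 2.3.3, scipy 1.17.1 and matplotlib 3.10.9 were used.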

Additional observations from a re-analysis of the deposited data

How the results depend on the processing

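Each value below is the share of tested genes counted under a changed choice, with the number of genes where it is given. For the 3 Ctrb1-high cells, against 3.06% higher and 12.53% lower, no level filter gave 1.34% higher (429 genes of all genes), a filter at 50 CPM gave 2.89% higher, the fold alone gave 9.505% higher and 22.8% lower, and a fold of 4 gave 0.819% higher (66 genes) and 4.17% lower (336 genes). These follow from testing other genes or asking for more or less. Thinning each cell to 40000 UMIs gave 4.82% lower (389 genes, of which 327 were among the 1010), since fewer molecules were left. Leaving out 1 cell gave 3.65 to 6.82% higher and 16.5 to 21.1% lower. It moved the log2 ratio of S phase genes between -4.06 and -0.66, of G2/M genes between -2.93 and -0.61, and of endocrine genes between -0.53 and 0.83, where the main value was 0.27 and thinning gave -0.22. Adding Acinar81 to the 3 cells, chosen after seeing the data, turned the log2 ratio of immune genes, which rest on 2 UMIs in the 3 cells, to 0.66, and 744 of the 1010 lower genes were still counted.

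For Acinar52, against 2.26% higher and 27.03% lower, read counts gave 0.877% (69 genes) and 43.5% (3420 genes). No filter gave 2.89% higher (929 genes), and a filter at 50 CPM gave 1.70% higher (76 genes) and 39.1% lower (1747 genes). Thinning gave 8.02% lower (647 genes), the fold alone gave 56.1% lower and a fold of 4 gave 0.707% and 17.1%. Against the 22 reference cells in the run of title numbers of Acinar52, 2.85% were higher (229 genes) and 39.7% lower (3190 genes). The total outside the acinar lists gave 7.43% higher (599 genes, with the level filter on that total) and 17.7% lower, and leaving out the amylase copies as well, chosen after seeing the data, gave 8.44% and 16.6%. On these totals the log2 ratio of translocon genes turned to 0.13 and 0.23 and that of ER-to-Golgi genes to 0.11 and 0.21, by construction of the total. Read counts turned the progenitor list to -0.30, and moved the share of Ctrb1 in acinar transcripts to 28.5% in Acinar52 and 95.4% in Acinar155; the cause was not tested. In all, 27 values of the main comparisons were marked as moved and 160 were not. The 160 include log2 ratios of the 3 cells that changed sign. Duct genes went from -0.24 to 0.25 without Acinar162, and injury genes from 0.44 to -0.17 without Acinar155. Among the values outside the main comparisons, 87 were marked as moved, 8 as reversed and 346 as neither. The rule's limit at 500 and 1000 CPM took 7 and 5 cells, and a stricter limit took 4. No paired analysis was possible because all cells belong to 1 group.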

Other observations

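A few genes joined Acinar52 to Acinar165 but not to Acinar155 and Acinar162. Gstm1, a glutathione transferase with close copies, stood at 1796 CPM in Acinar52 and 2855 CPM in Acinar165, both above the reference maximum of 538, and at 20.9 and 53.4 CPM in the other 2. Aldh1a1, an enzyme that makes retinoic acid, stood at 234 and 585 CPM in the first pair, above the reference maximum of 225, and at 34.8 and 5.34 CPM in the other. Acinar165 was also the cell with the highest Pnliprp2 and Clps of the 3, but both belong to the rule and support no pairing. Gstm1, Aldh1a1, Pnliprp2 and Clps were named by the rules, but the pairing of cells was noticed after their values were seen.

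Islet hormone transcripts were found in Acinar52. The islet hormone Iapp had 10 UMIs in Acinar52 (55.6 CPM), where 1 reference cell lay higher, and 0, 1 and 0 in the 3. Ins1 had 17 UMIs in Acinar52 and Ins2, a near copy, had 22, with reference maxima of 269 and 416 CPM.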
